A study of Mus musculus with 6 samples.

Results

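Germline and meiosis genes were followed in mouse embryonic stem cells (ESCs) as a set of 34 autosomal genes with known roles in germ cells, taken by gene symbol through the Ensembl identifier from a table of 37620 genes, of which 33 had enough reads to be tested. The set held 8 genes of the meiotic chromosome axis, cohesin and synaptonemal complex, 3 of meiotic recombination, 14 of the piRNA pathway and of nuage, 6 regulators that bind RNA, DNA or chromatin, and 3 others. The libraries were made from polyA RNA of E14 ESCs, a mouse line of the 129/Ola strain grown in 15% FBS. The groups were 3 libraries of wild-type (WT) cells and 3 of cells that carry Ube2d3-S138A, a CRISPR/Cas9-made change of a serine to alanine in the ubiquitin-conjugating enzyme UBE2D3, with no other treatment named for either group. The study's work on ESCs used 1 S138A clone, and although its text does not describe these libraries, genotype and clone cannot be told apart in them. It was also not given whether the libraries of a group came from separate cultures, so p-values measure only the spread between these libraries. Sequencing gave from 33227593 to 37169770 counts per library.

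Germ cells run a programme that other cells keep off. Homologous chromosomes are paired and recombined on a protein axis in meiosis, while PIWI proteins with their small piRNAs, assembled with Tudor-domain proteins in granules called nuage, silence transposons. In ESCs many of these genes are repressed by DNA methylation of CpG-rich promoters and by the Polycomb complex PRC1.6, which is brought to promoters by MGA with MAX at the E-box and by E2F6, yet ESCs are close to the cell state from which primordial germ cells arise and transcribe a number of them.

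Promoter sequences were searched for the letters those repressors read. A RefSeq window of 300 bases, from 250 before to 50 after the start (GRCm38.p6), was found for 32 of the 34 genes, 7 of which have more than 1 start and up to 3 windows. A gene was counted as holding a motif if any of its windows did, here and over all genes, and CpGs were counted in the most upstream window. Windows for Spo11 and Piwil2 were not analysed here. The E-box CACGTG, which reads the same on both strands, was in 12 of the 32 genes (37.5%), against 8.09% of 27025 genes with a window and 11.4% of the 11394 tested genes among them. The E2F core GCGGGA, searched on both strands and so also as TCCCGC, was in 13 (40.6%), against 22% of all genes and 39.4% of tested genes, so that its share was near that of tested genes. The letters of the motifs do not overlap each other. Both were in 7 genes (21.9%), Sycp1, Sycp3, Hormad1, Stag3, Ddx4, Mael and Slc25a31, against 5.07% of tested genes. The median number of CpGs in a window was 19.5, against 7 over all genes and 20 over tested genes. The set was drawn up as germ cell genes of which many are held silent by DNA methylation or PRC1.6. A high share of the E-box may thus be partly fixed by that choice and is description only. A match describes the letters of the window and is not evidence of binding, and windows without a match say nothing of the factor. The promoters below belong to the genes with the lowest unadjusted p between genotypes that have a window, and are written 5′ to 3′ with the E-box and E2F letters in capitals. Tdrd1 lies at chr19:56825959-56826258 on the plus strand, Tdrd12 at chr7:35537695-35537994 on the minus strand, Hormad1 at chr3:95559427-95559726 on the plus strand and Hormad2 at chr11:4441033-4441332 on the minus strand.
Tdrd1: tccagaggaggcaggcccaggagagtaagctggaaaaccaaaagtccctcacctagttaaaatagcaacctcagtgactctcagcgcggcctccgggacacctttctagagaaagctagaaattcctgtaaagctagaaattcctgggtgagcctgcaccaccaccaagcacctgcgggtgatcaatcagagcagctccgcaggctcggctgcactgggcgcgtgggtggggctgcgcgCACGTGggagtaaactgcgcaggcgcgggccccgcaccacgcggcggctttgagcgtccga
Tdrd12: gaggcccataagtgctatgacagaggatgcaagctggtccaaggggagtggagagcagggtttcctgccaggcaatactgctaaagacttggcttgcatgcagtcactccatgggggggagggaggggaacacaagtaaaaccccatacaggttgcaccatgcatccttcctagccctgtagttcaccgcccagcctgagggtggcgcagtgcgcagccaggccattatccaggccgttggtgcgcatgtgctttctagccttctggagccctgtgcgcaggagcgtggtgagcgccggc
Hormad1: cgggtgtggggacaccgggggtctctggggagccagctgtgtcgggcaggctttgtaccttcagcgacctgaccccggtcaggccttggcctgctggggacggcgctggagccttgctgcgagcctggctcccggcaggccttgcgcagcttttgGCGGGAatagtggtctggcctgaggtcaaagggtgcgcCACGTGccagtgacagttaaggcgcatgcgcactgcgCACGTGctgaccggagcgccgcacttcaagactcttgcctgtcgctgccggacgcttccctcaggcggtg
Hormad2: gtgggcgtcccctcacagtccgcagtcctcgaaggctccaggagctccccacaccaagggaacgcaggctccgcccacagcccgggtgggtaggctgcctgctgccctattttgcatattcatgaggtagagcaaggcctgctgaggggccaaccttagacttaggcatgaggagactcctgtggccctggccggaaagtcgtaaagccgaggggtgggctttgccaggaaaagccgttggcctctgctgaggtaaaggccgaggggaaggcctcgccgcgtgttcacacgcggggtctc
Tdrd1 held 1 E-box and Hormad1 held 2 with an E2F core, whereas Tdrd12 and Hormad2 held neither. Counts of CpG in these windows were 20 for Tdrd1, 9 for Tdrd12, 24 for Hormad1 and 16 for Hormad2.

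Some of these genes were transcribed well in WT ESCs while others were near the detection limit. Levels are CPM, the counts of a gene per 1000000 counts of its library, scaled by TMM, the edgeR correction for library composition, and for comparison between genes they were divided by the length of the longest coding transcript in kilobases (kb). Tex19.1, which restrains retrotransposons in germ cells and placenta, had the highest WT level at 144 ± 20.6 CPM per kb (SD, n = 3). Rpl10l, an autosomal retrocopy of the X-linked ribosomal protein gene Rpl10, followed at 79.9 ± 3.42 CPM per kb, and reads shared with Rpl10 may be part of it. Next in order were Stag3, a meiotic cohesin subunit, at 31.1 ± 1.01, Sycp3, of the chromosome axis, at 29.5 ± 4.51, and Dazl, an RNA-binding regulator of germ cell translation, at 21.3 ± 2.45 CPM per kb. Stag3 and Sycp3 did not differ beyond their spread. At the low end were Spo11, the enzyme that makes the DNA breaks of meiosis, at 0.0231 ± 0.0108, and Tdrd9, a helicase of the piRNA pathway, at 0.116 ± 0.113 CPM per kb. Without division by length, 4 of the 5 highest genes were the same, Mlh3 taking the place of Sycp3. Spo11 was counted 2, 1 and 1 times in WT 1, 2 and 3 and 1, 3 and 0 times in S138A A, B and C, and was not tested. A count of 0 in S138A C allows up to 3 counts, or 0.0809 CPM, for counting error only.

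**Figure D1:**
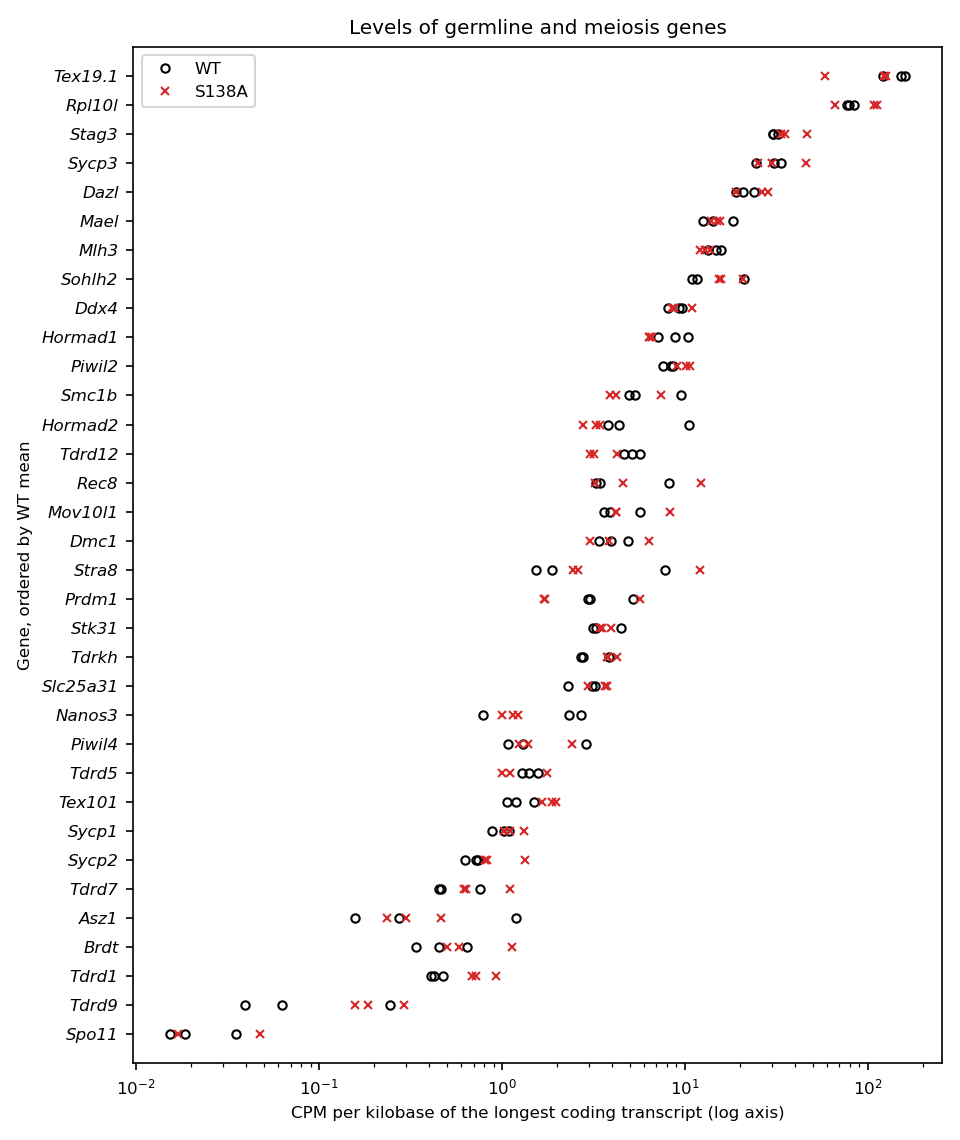
CPM per kilobase of the longest coding transcript (log axis) for the 34 genes, ordered by the WT mean, with 1 circle per WT library and 1 cross per S138A library. The genes run from Spo11 at 0.0231 to Tex19.1 at 144 CPM per kb in WT, and the 0 of Spo11 in S138A C cannot be drawn on a log axis.

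The ESC label was checked against marker genes. The 8 ESC markers, Pou5f1, Nanog and Sox2 among them, summed to between 4587 and 5101 CPM in every library, whereas 11 markers of spermatids and oocytes summed to between 1.75 and 4.75 CPM, with Prm1 and Acrv1, the protamine and acrosome genes of spermatids, at 0 in all 6 libraries. Endoderm markers (7 genes) summed to between 17.8 and 27.8 CPM. The codon change itself cannot be checked in gene counts. The first principal component (57.2% of variance) parted WT 3 and S138A C from the rest, and the second (25.6%) parted the genotypes, so results are given with and without this pair. The labels give WT and S138A the same replicate numbers, but the S138A columns carry a last digit only. They are called A, B and C here. A replicate block pairs WT 1 with A, WT 2 with B and WT 3 with C.

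The comparison of genotypes asked which germline genes differ in mRNA level once this serine is lost. No germline gene passed edgeR's quasi-likelihood test with Benjamini-Hochberg adjustment when all 6 libraries were compared without a block, and none of the 16023 genes tested did (0% higher and 0% lower). The lowest adjusted p among the germline genes was 0.21. At an unadjusted p under 0.05 there were 5 germline genes and 2270 genes in all. DESeq2 called 1 germline gene, Tdrd1, higher (2.62% of all genes higher, 2.35% lower), and limma-voom called none (0% and 0%). Without S138A C the edgeR test called 59 genes higher and 20 lower, none of them germline genes. With the replicate block, 3 germline genes rose in S138A cells (10.7% of all genes were called higher) and 4 fell (9.13% lower). Those that rose were Tdrd1, Tdrkh and Stra8, and those that fell were Hormad2, Smc1b, Tdrd12 and Tex19.1. With a term that sets WT 3 and S138A C against the rest, 8 were called higher and 5 lower (14.6% and 13% of all genes), which added Stag3, Tdrd7, Piwil2, Brdt and Tex101 to those that rose and Hormad1 to those that fell. In the 4 libraries without that pair, 9 were called higher and 7 lower (15.3% and 14.3%), including all 7 genes called with the block.

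Across the 33 tested genes the median log2 fold change of S138A over WT was 0.20, against 0.02 over all genes tested, with 21 genes above 0 and 12 below and a range from -0.99 for Hormad2 to 0.84 for Tdrd9. The median turned to -0.07 without S138A C and was 0.29 without WT 3. All 3 S138A libraries lay above all 3 WT libraries for Sycp2, Stag3, Tdrd1, Piwil2 and Tex101 (11.3% of all tested genes did so), and below them for Hormad1, Hormad2 and Tdrd12 (10.9%). The groups overlapped for the remaining 25. The summed level of all 34 genes was 933, 968 and 1012 CPM in WT 1, 2 and 3 and 970, 954 and 973 CPM in S138A A, B and C, so that the groups overlapped. The genes with most counts weigh most in this sum and can offset each other. Tex19.1 had a mean of 252 ± 35.9 CPM in WT and 179 ± 66.55 CPM in S138A (SD, n = 3), with overlapping groups. Stag3 had means of 131 ± 4.2 and 162 ± 29.8 CPM. In bulk RNA, fewer cells that transcribe a gene and less RNA per cell cannot be told apart.

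Although their sum was similar in every library, 1 of the 8 ESC markers rose with the replicate block and 1 fell (10.7% and 9.13% of all genes). Klf4 rose (adjusted p = 0.0251) and Zfp42 fell (adjusted p = 0.0321). Without the block edgeR gave adjusted p-values of 0.371 for Klf4 and 0.337 for Zfp42, and in the 4 libraries 0.032 and 0.078. The groups overlapped for Klf4 but not for Zfp42. Markers of other cell states differed between the same libraries. The summed level of 9 markers of 2-cell-like cells, a rare ESC state with an early-embryo programme, was 67.3, 69.6 and 36.4 CPM in WT and 188, 191 and 49.7 CPM in S138A A, B and C. All 9 rose with the replicate block (10.7% of all genes did), among them Zscan4f, which acts at telomeres, at 9.41, 9.84 and 5.77 against 18.2, 26.9 and 8.04 CPM. All S138A libraries lay above all WT libraries for 2 of the 9 (11.3% of all tested genes). The groups overlapped for 7, Zscan4f included. Without a block edgeR and limma-voom called none of them, and DESeq2 called 3 higher (2.62% of all genes). The 9 fibroblast and feeder markers summed to between 586 and 675 CPM in WT and between 667 and 879 CPM in S138A. Most of this sum was Fn1, at 520, 526 and 571 CPM in WT and 530, 542 and 780 CPM in S138A. Fn1 overlapped between groups and was not called with the block (adjusted p = 0.218). Of the 7 fibroblast and feeder markers that could be tested, 3 rose with the block (10.7% of all genes did). They included Col1a1, a collagen, at 21.1, 20.5 and 36.2 against 68.8, 74.97 and 37.9 CPM. Lum was at 0 in 5 of 6 libraries. The part of these cells in the germline results was not tested.

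**Figure D2:**
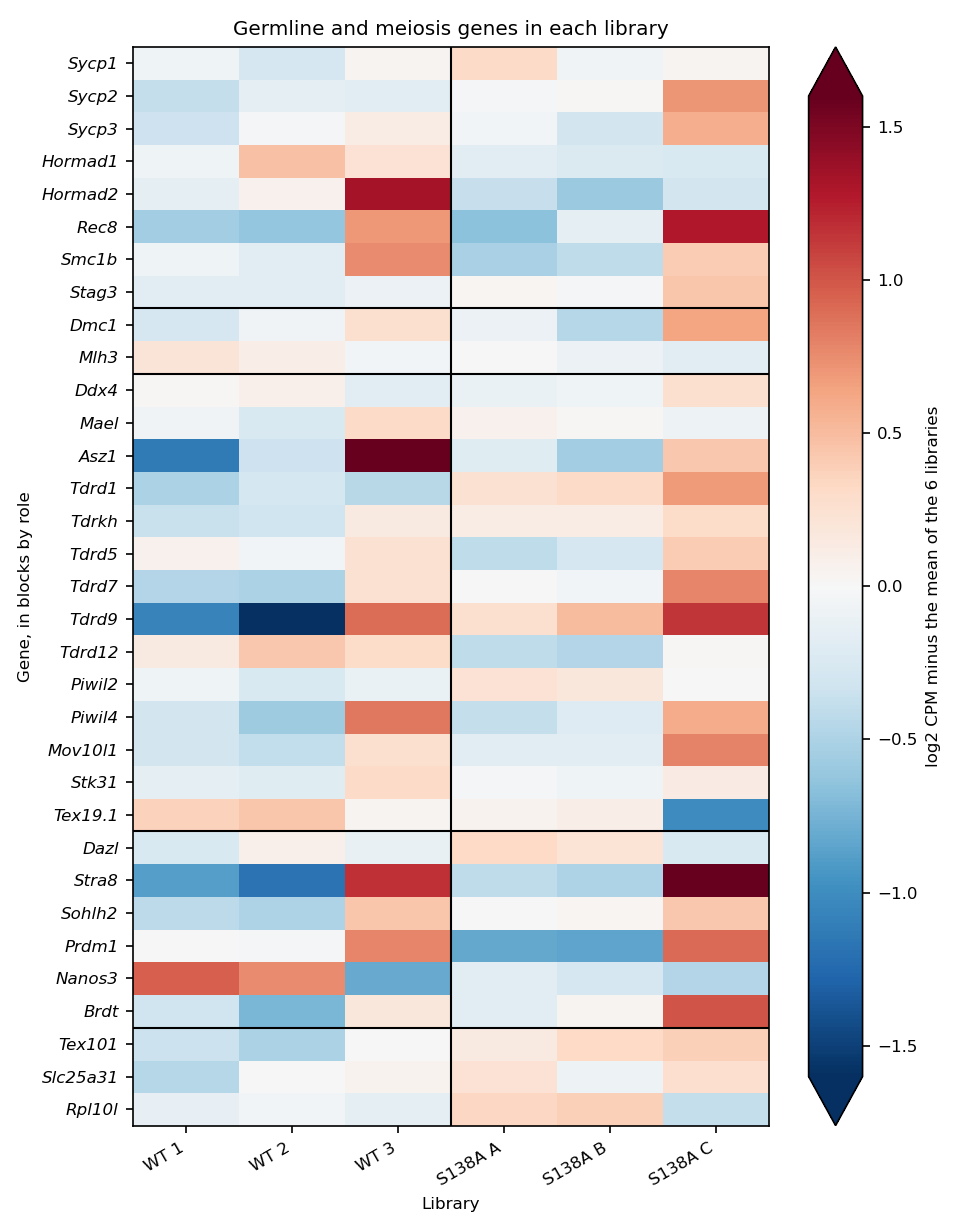
Heat map of log2 CPM of each tested germline gene (33 genes) in each library, minus the mean of the gene over the 6 libraries, in blocks by role. The vertical line parts WT from S138A, and the columns of WT 3 and S138A C are the reddest for Stra8, Rec8 and Tdrd9, among others, with colours cut off at the ends of the scale.

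Of the axis, cohesin and synaptonemal complex genes, none of the 8 was called higher with the replicate block and 2 fell, Hormad2 and Smc1b (10.7% and 9.13% of all genes). Values are given in the order WT 1, 2, 3 and then S138A A, B, C. Hormad2, a HORMA-domain protein of unsynapsed chromosome axes, measured 7.48, 8.64 and 20.8 CPM in WT and 6.404, 5.46 and 6.74 CPM in S138A. All S138A values lay below all WT values, and WT 3 was 2.59 times the mean of WT 1 and 2. The log2 fold change was -0.99 (SE 0.40, adjusted p = 0.334), -0.86 with the replicate block (adjusted p = 0.0476) and -0.44 in the 4 libraries without the pair (adjusted p = 0.0367). Without WT 3 it was -0.38. Hormad1, its paralogue that promotes DNA breaks on the axis, measured 10.8, 15.8 and 13.4 against 10.1, 9.70 and 9.60 CPM. The groups did not overlap, and the log2 fold change of -0.44 (SE 0.18) had an adjusted p of 0.329, or 0.0611 with the replicate block.

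Smc1b, the meiotic SMC1 subunit of cohesin, measured 21.6, 20.1 and 38.4 CPM in WT and 15.9, 17.1 and 30.1 CPM in S138A. WT 3 and S138A C were each the highest of their group, so the groups overlapped although A and B lay below every WT library. The log2 fold change was -0.35 (SE 0.34, adjusted p = 0.694), and -0.34 with the replicate block (adjusted p = 0.0316) and in the 4 libraries (adjusted p = 0.0198), while it was 0.0095 without WT 3 and -0.70 without S138A C. Stag3 measured 128, 128 and 136 against 148, 142 and 196 CPM, with all S138A libraries above all WT libraries. Its log2 fold change of 0.31 (SE 0.14) had an adjusted p of 0.386, and 0.0569 with the block. Rec8, the meiotic kleisin that closes the cohesin ring, measured 7.54, 7.18 and 17.8 against 7.01, 9.98 and 26.9 CPM. Its high values were WT 3 and S138A C, and the log2 fold change of 0.43 (SE 0.58, adjusted p = 0.778) was -0.36 without S138A C.

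Genes of the synaptonemal complex did not pass any of these tests. Sycp2, an axial element protein, measured 3.60, 4.24 and 4.12 CPM in WT and 4.61, 4.73 and 7.66 CPM in S138A. The groups did not overlap and S138A C was the highest library. Its log2 fold change was 0.51 (SE 0.26, adjusted p = 0.431), with an adjusted p of 0.0995 with the replicate block, and 0.22 without S138A C. Sycp3, the partner of SYCP2, measured 28.8, 35.7 and 39.1 against 34.9, 29.3 and 53.8 CPM. Sycp1, the filament that joins the axes of homologues, measured 3.51, 3.04 and 3.78 against 4.55, 3.53 and 3.80 CPM. Both overlapped between groups. For recombination, Dmc1, the meiotic strand-exchange recombinase, measured 7.57, 8.76 and 10.9 against 8.58, 6.69 and 14.1 CPM. Mlh3, a mismatch repair protein needed for crossovers, measured 86.6, 81.0 and 73.2 against 75.1, 70.5 and 66.3 CPM. The groups overlapped for both, and Mlh3 fell by 0.21 on the log2 scale in the 4 libraries alone (adjusted p = 0.044), with an adjusted p of 0.0905 with the block.

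The piRNA and nuage genes held the lowest adjusted p-values, those of Tdrd1 and Tdrd12. Tdrd1 and Tdrkh rose with the replicate block and Tdrd12 and Tex19.1 fell, out of 14 genes (10.7% of all genes rose and 9.13% fell). Tdrd1, a Tudor scaffold of nuage that binds PIWI proteins, measured 2.12, 2.47 and 2.20 CPM in WT and 3.56, 3.72 and 4.83 CPM in S138A. All S138A libraries were above all WT libraries, the pair included. The log2 fold change was 0.84 (SE 0.22, adjusted p = 0.21), 0.83 with the replicate block (adjusted p = 0.0215) and 0.67 in the 4 libraries (adjusted p = 0.0165), and DESeq2 gave an adjusted p of 0.0226. Tdrkh, the Tudor protein on mitochondria that takes part in piRNA trimming, measured 15.5, 15.8 and 21.8 against 21.4, 21.6 and 24.3 CPM. WT 3 lay between the S138A libraries, so the groups overlapped. Its log2 fold change was 0.34 (SE 0.17, adjusted p = 0.426), with 0.35 under the replicate block (adjusted p = 0.0447) and 0.46 in the 4 libraries (adjusted p = 0.00526).

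Tdrd12, a Tudor helicase of secondary piRNA production, measured 17.04, 20.7 and 18.9 CPM in WT and 11.7, 11.1 and 15.6 CPM in S138A. No S138A library reached the lowest WT library. The log2 fold change was -0.56 (SE 0.18, adjusted p = 0.253), -0.57 with the replicate block (adjusted p = 0.0253) and -0.73 in the 4 libraries (adjusted p = 0.00361), with an adjusted p of 0.0646 by DESeq2. Tex19.1 measured 265, 280 and 211 against 214, 221 and 102 CPM. WT 3 fell just below A and B, so the groups overlapped, and S138A C was the lowest. The log2 fold change was -0.49 (SE 0.29, adjusted p = 0.495), -0.56 with the replicate block (adjusted p = 0.032) and -0.33 in the 4 libraries (adjusted p = 0.00569), and -0.21 without S138A C. Reads shared with its neighbour and paralogue Tex19.2 could not be separated here.

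**Figure D3:**
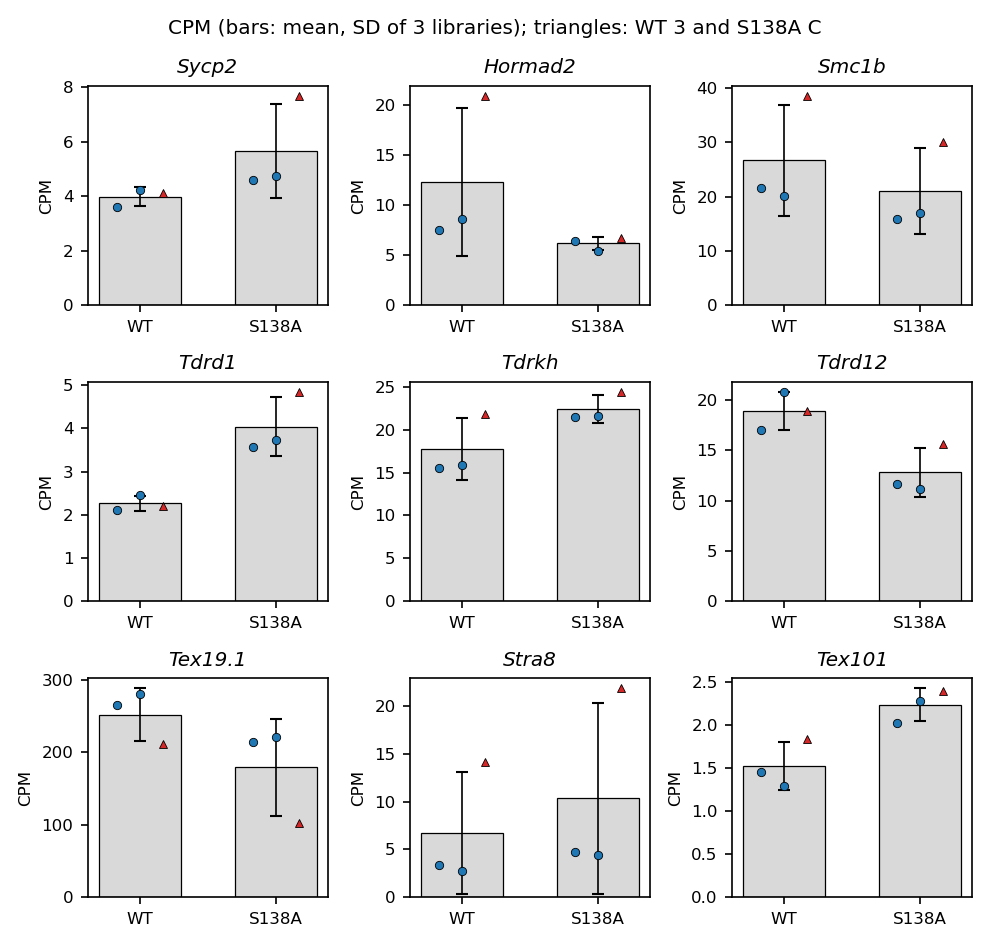
CPM in each library of the 9 germline genes with fully reported statistics, with bars for the mean and error bars for the SD of 3 libraries. Circles are WT 1, WT 2, S138A A and S138A B, and triangles are WT 3 and S138A C. Sycp2, Hormad2, Tdrd1, Tdrd12 and Tex101 do not overlap between genotypes, while in Stra8 the triangles stand far above the circles in both.

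The PIWI genes were not called with the replicate block. Piwil2, which encodes the cytoplasmic PIWI protein MILI, measured 42.4, 37.3 and 41.1 CPM in WT and 52.3, 50.1 and 44.7 CPM in S138A. All S138A libraries lay above all WT libraries, with a log2 fold change of 0.28 (SE 0.11, adjusted p = 0.315), an adjusted p of 0.0518 with the replicate block, and 0.36 in the 4 libraries (adjusted p = 0.0129). Piwil4, which encodes the nuclear PIWI protein MIWI2, measured 4.33, 3.58 and 9.54 against 4.09, 4.59 and 8.04 CPM, with the high values in WT 3 and S138A C. Mov10l1, the helicase that feeds piRNA precursors to processing, measured 16.1, 15.0 and 23.6 against 17.4, 17.4 and 34.3 CPM, and did not pass the test in any of these fits. Ddx4, the germ cell helicase also called VASA, measured 27.9, 29.2 and 24.4 against 25.7, 26.3 and 32.9 CPM. Mael, a nuage protein, measured 24.0, 21.1 and 31.0 against 26.3, 25.3 and 23.6 CPM, and Stk31, a Tudor-domain protein with a kinase-like part, 10.5, 10.2 and 14.4 against 11.5, 11.1 and 12.7 CPM. These last 3 overlapped between groups, and each changed sign under at least 1 of the other settings.

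Lower in level were Asz1 and the remaining Tudor genes. Asz1, which anchors nuage at mitochondria, was counted 9, 15 and 79 times in WT and 18, 15 and 30 times in S138A, so that WT 3 alone set its log2 fold change of -0.71 (SE 0.75, adjusted p = 0.715), which was 0.63 without it. Tdrd9 measured 0.303, 0.190 and 1.18 against 0.753, 0.897 and 1.40 CPM. WT 3 lay among the S138A libraries, and the log2 fold change of 0.84 (SE 0.66, adjusted p = 0.613) was 1.72 in the 4 libraries (adjusted p = 0.0118). Tdrd7, which organises nuage in spermatids, measured 1.73, 1.68 and 2.83 against 2.38, 2.31 and 4.10 CPM. Tdrd5, another Tudor protein of nuage, measured 5.27, 4.84 and 5.90 against 3.77, 4.16 and 6.63 CPM. Both overlapped between groups.

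Regulators of germ cell fate and of entry into meiosis gave 1 call, higher, among 6 genes with the replicate block (10.7% of all genes were called higher and 9.13% lower). Stra8, the retinoic acid-induced factor that starts meiosis, measured 3.39, 2.75 and 14.1 CPM in WT and 4.72, 4.43 and 21.8 CPM in S138A. Within each genotype the library of the pair was over 4 times the others (4.59 times the mean of WT 1 and 2, and 4.76 times that of A and B), so the groups overlapped. The log2 fold change was 0.61 (SE 0.84, adjusted p = 0.788), 0.60 with the replicate block (adjusted p = 0.0179) and 0.57 in the 4 libraries (adjusted p = 0.0265), but -0.57 without S138A C and 1.75 without WT 3. Prdm1, the repressor BLIMP1 that specifies primordial germ cells, measured 15.9, 15.6 and 27.4 against 9.10, 8.94 and 30.04 CPM. A and B were below every WT library and C above every one, and the log2 fold change of -0.29 (SE 0.51, adjusted p = 0.836) was -0.81 in the 4 libraries (adjusted p = 0.00101) and 0.02 without WT 3.

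Dazl measured 56.8, 71.2 and 62.0 against 84.4, 78.3 and 56.8 CPM. A and B were above every WT library and C was level with the lowest, and it rose in the 4 libraries alone, by 0.34 (adjusted p = 0.0393). Sohlh2, a helix-loop-helix factor of early spermatogonia and oocytes, measured 27.4, 26.0 and 49.9 against 36.3, 37.5 and 49.1 CPM, and rose by 0.46 in the 4 libraries (adjusted p = 0.00366). Nanos3, which keeps primordial germ cells alive, measured 1.97, 1.71 and 0.577 against 0.898, 0.843 and 0.728 CPM, with -1.08 on the log2 scale in the 4 libraries (adjusted p = 0.00922). Brdt, a testis bromodomain protein, measured 2.15, 1.61 and 3.04 against 2.38, 2.77 and 5.39 CPM. None of these 4 genes passed the test with the replicate block, and their groups overlapped.

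Of the other germline genes, Tex101, a surface protein of germ cells, measured 1.45, 1.30 and 1.84 CPM in WT and 2.03, 2.28 and 2.40 CPM in S138A. All S138A libraries lay above all WT libraries, with a log2 fold change of 0.55 (SE 0.24, adjusted p = 0.372), an adjusted p of 0.0866 with the replicate block and 0.65 in the 4 libraries (adjusted p = 0.0366). Rpl10l measured 80.6, 85.7 and 79.0 against 111, 115 and 67.5 CPM. Libraries A and B were above every WT library and C below, and it rose by 0.44 in the 4 libraries only (adjusted p = 0.00269). Slc25a31, the germ cell ADP/ATP carrier of mitochondria, measured 4.87, 6.61 and 6.89 against 7.80, 6.28 and 8.01 CPM, with overlapping groups.

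**Figure D4:**
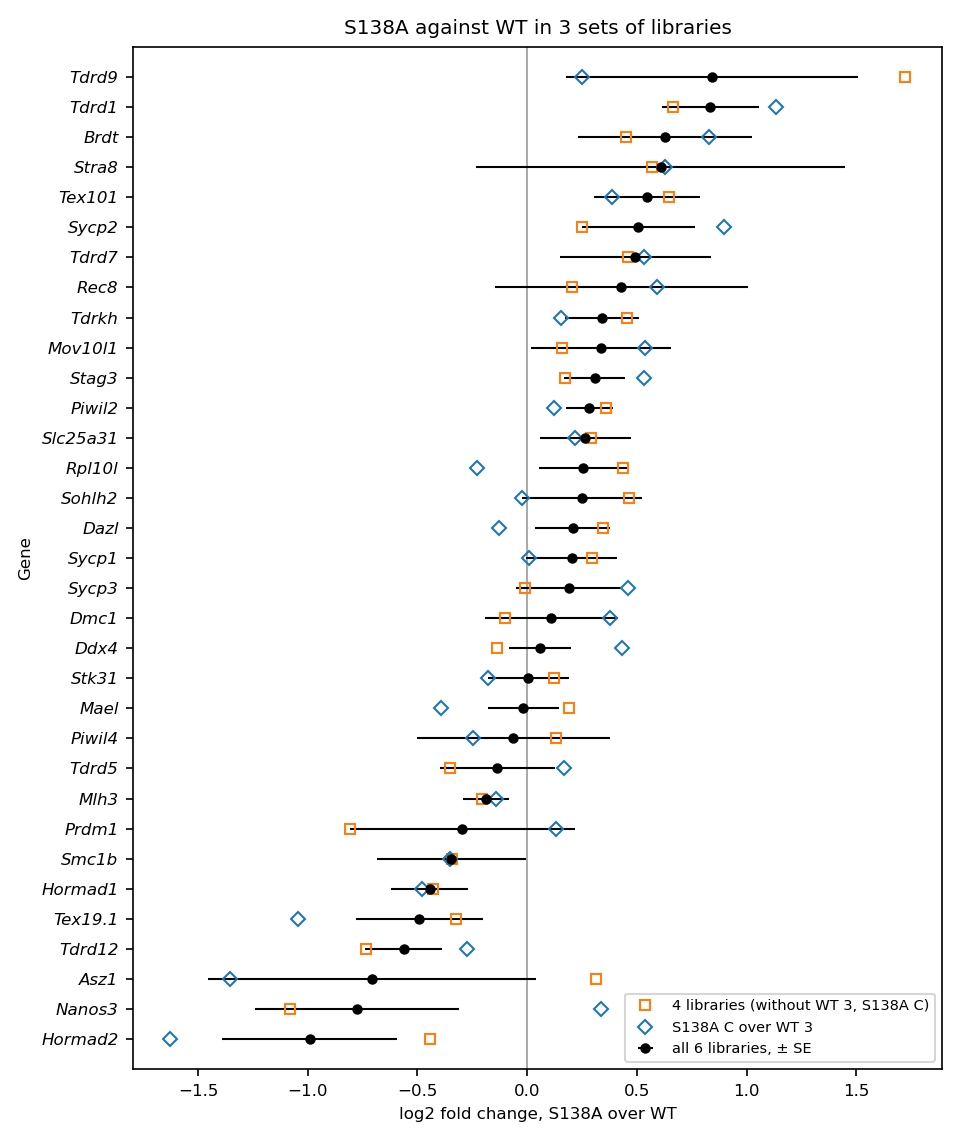
Log2 fold change of S138A over WT for the 33 tested germline genes, with black points and SE bars for all 6 libraries, orange squares for the 4 libraries without WT 3 and S138A C, and blue diamonds for S138A C over WT 3. Squares and diamonds lie on the same side of 0 for 20 of the 33 genes, and Prdm1, Nanos3, Asz1 and Rpl10l are among those where they do not.

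WT 3 and S138A C differed from the other libraries in many germline genes. Both were above the other 4 libraries for 16 of the 33 genes (24.6% of all tested genes) and both below for 3, Tex19.1, Nanos3 and Rpl10l (24.4%). The mean of the pair was at least 2 times that of the other 4 libraries for 6 genes, at 4.69 times for Stra8, 3.44 for Asz1, 2.82 for Rec8, 2.41 for Tdrd9, 2.32 for Prdm1 and 2.12 for Piwil4. Repressors of germline genes were compared in the same way. Both libraries were below the others for 5 of 16 genes of PRC1.6 and above for 1, and below for 9 of 14 genes for DNA and H3K9 methylation and above for none, among them Hells, a remodeller that aids DNA methylation, at 347 and 274 CPM in the pair and between 396 and 504 CPM elsewhere. Of 4 genes that open methylated DNA, both libraries were below the others for 2 (24.4% of all tested genes) and above for none. Tet2, a methylcytosine oxidase, was at 169 and 161 CPM in the pair and between 300.3 and 327 CPM elsewhere. Tet1 did not follow it, at 1468 and 1498 CPM in the pair and between 1396 and 1716 CPM elsewhere. The part of these differences in the germline result was not tested. Genotype could also be read within each set of libraries. The sign of S138A over WT in the 4 libraries and that of S138A C over WT 3 were the same for 20 of 33 germline genes and for 70.0% of all tested genes.

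Genes of the wider pathway moved both ways as well. Of 46 other germ cell genes, 44 were in the table and 40 were tested, with 21 log2 fold changes above 0, 19 below and a median of 0.02. Without a block edgeR called none in the 6 libraries (6 had an unadjusted p under 0.05), limma-voom none, and DESeq2 1 higher and 1 lower (2.62% and 2.35% of all genes). With the replicate block 4 rose and 6 fell (10.7% and 9.13% of all genes). Taf7l, a germ cell form of a TFIID subunit, had a log2 fold change of 0.60 with the block (adjusted p = 0.0253). Mei4 and Rec114, partners in the making of meiotic DNA breaks, had -0.70 (adjusted p = 0.0224) and -0.89 (adjusted p = 0.0266). Rec114 measured 3.75, 3.48 and 7.92 CPM in WT and 2.23, 2.501 and 3.02 CPM in S138A, a layout like that of Hormad2 with WT 3 highest. Tex14, which builds the bridges between germ cells, had -0.53 (adjusted p = 0.014).

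Of 16 genes of PRC1.6, 13 had a log2 fold change below 0, and the median was -0.13, against 0.02 over all genes tested. All S138A libraries lay below all WT libraries for 5 and above for 1 (10.9% and 11.3% of all tested genes). The groups overlapped for the other 10. With the replicate block 6 fell and 1 rose (9.13% and 10.7% of all genes). Without a block edgeR called none in the 6 libraries (5 had an unadjusted p under 0.05), limma-voom none and DESeq2 1 lower (2.35% of all genes). The 4 libraries gave 7 lower and 1 higher (14.3% and 15.3% of all genes). Mga, the E-box factor of the complex, measured 711, 688 and 582 CPM in WT and 576, 507 and 512 CPM in S138A, and had a log2 fold change of -0.31 with the block (adjusted p = 0.0254). Cbx1, a reader of H3K9 methylation, measured 370, 373 and 348 against 240, 234 and 212 CPM. Cbx1 had a log2 fold change of -0.67 with the block (adjusted p = 0.00398). Rnf2, the catalytic RING subunit, had -0.42 (adjusted p = 0.0105), while its paralogue Ring1 had 0.37 (adjusted p = 0.0471). Among the 14 DNA and H3K9 methylation genes 2 fell with the block and none rose (9.13% and 10.7% of all genes). Without a block edgeR, limma-voom and DESeq2 called none of them. All S138A libraries lay above all WT libraries for 3 of the 14, Suv39h1 and Atf7ip among them, and below for 1 (11.3% and 10.9% of all tested genes). Hells had -0.32 with the block (adjusted p = 0.0161). Its groups overlapped, and edgeR without the block gave an adjusted p of 0.542. Among 4 genes that open methylated DNA, Tet3, the oxidase of the zygote, rose by 0.46 with the block (adjusted p = 0.0137) and none fell (10.7% and 9.13% of all genes). Without the block edgeR gave Tet3 an adjusted p of 0.27. The 4 libraries gave 1 of these genes higher and 1 lower (15.3% and 14.3% of all genes). The lower one was Tet1, with a log2 fold change of -0.22 (adjusted p = 0.0322).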

How the data were processed

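RNA-seq libraries were prepared from polyA RNA with a stranded kit. Per the labels, the authors called bases with CASAVA 1.8.4, used TopHat2 2.0.11 for alignment to the mm9 build (NCBIM37) and counted reads per Ensembl gene with featureCounts, and the deposited table holds raw counts. Strand and multi-mapping settings were not given in the sources used here, so overlapping genes and near-identical copies are uncertain. The paper does not describe this RNA-seq experiment. All 6 columns were used, and the names of the S138A columns gave the group but not the replicate.

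Symbols were matched by Ensembl identifier. Genes were filtered with filterByExpr (minimum count 10, minimum total 15) and tested with edgeR 4.0.16 (TMM, quasi-likelihood test, no block, Benjamini-Hochberg over all genes tested, threshold 0.05) in R 4.3.3. DESeq2 1.42.0, limma-voom 3.58.1, other filters and factors, a replicate block, a term for WT 3 and S138A C, those libraries left out, and each library left out in turn were alternatives. The scripts were tested on simulated data. The block used the last digit of the column names. Deviations from the group means correlated at 0.53, 0.493 and 0.753 between same-numbered libraries, and at 0.515 and 0.526 with numbers 1 and 2 crossed. The correlations thus place WT 3 with S138A C but cannot decide how numbers 1 and 2 pair, for which the last digit was taken. Transcript lengths came from GENCODE M21 on GRCm38 and promoter windows from RefSeq on GRCm38.p6, other builds than that of the counts, and were joined by gene name only.

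The genes and lists, and the pair of libraries set apart, were chosen with earlier results of these data known. Full statistics are given for genes called without or with the replicate block, or with groups that do not overlap and a log2 fold change of at least 0.5 in size, and values in every library for the other tested genes. From each other list up to 4 genes were eligible for naming, by p without the block, and the collagen, 2-cell-like and TET genes were drawn from those. Prm1, Acrv1 and Lum were named after their values were seen. Promoters were printed for the lowest p.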

Additional observations from a re-analysis of the deposited data

How the results depend on the processing

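The test without a block called no gene, higher or lower. Counts moved to 2 and 2 of all genes without the low-count filter, to 420 and 377 with DESeq2 (germline genes: 1 higher), to 1717 and 1463 with the replicate block (3 and 4), to 2338 and 2080 with the term for the pair (8 and 5), and to 2463 and 2293 in the 4 libraries (9 and 7). Leaving out each library gave 0 to 59 genes higher and 0 to 20 lower over all genes, both upper values without S138A C, and 0 germline genes each time. The median of the germline genes ranged from -0.07 to 0.29 in these fits. The cause of these moves was not tested. RLE factors, a filter of 1 CPM in 3 libraries and limma-voom changed no count of calls.

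Over 33 germline genes and 14 settings, 395 of 459 values kept their direction and their side of the threshold, 37 passed it and 27 changed sign, in 13 genes. In the 4 libraries the log2 fold changes that changed sign were Sycp3 -0.0086, Dmc1 -0.10, Ddx4 -0.14, Mael 0.19, Asz1 0.31 and Piwil4 0.13, and without the filter Stk31 -0.0056. Leaving out each library gave ranges that cross 0 for all 13, from -0.11 to 0.35 for Sycp3, -0.36 to 0.99 for Rec8, -0.70 to 0.0095 for Smc1b, -0.25 to 0.32 for Dmc1, -0.066 to 0.12 for Ddx4, -0.14 to 0.15 for Mael, -1.15 to 0.63 for Asz1, -0.43 to 0.014 for Tdrd5, -0.43 to 0.49 for Piwil4, -0.073 to 0.57 for Mov10l1, -0.093 to 0.18 for Stk31, -0.57 to 1.75 for Stra8 and -1.13 to 0.022 for Prdm1. Of the 27 sign changes, 8 came without S138A C and 6 without WT 3, fits that leave the pair unbalanced between genotypes. In the 4 libraries and for S138A C over WT 3 the sign was the same for Stra8 (0.57 and 0.63) and Rec8 (0.21 and 0.59). It was also the same for Smc1b (-0.34 and -0.35) and Mov10l1 (0.16 and 0.54), and it differed for the others of the 13. The cause was not tested.

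With only the bases before the start searched, the E-box was in 12 genes (37.5%, against 9.68% of tested genes) and the E2F core in 10 (31.2%, against 33.7%). Each group has 3 libraries, which limits precision.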
